A study of Mus musculus with 20 samples.

Results

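The NRF2 antioxidant response genes examined here were Nfe2l2, Keap1, Nqo1, Gclc, Gclm, Hmox1, Srxn1, Txnrd1, Slc7a11 and Gpx2. They were taken by gene symbol from the raw count table, which held all 10 of them among 22090 genes. RNA-seq of bulk skin compared normal skin (NS, n = 8), actinic keratosis (AK, n = 8), the precancerous lesion of sun-damaged skin, and cutaneous squamous cell carcinoma (cSCC, n = 4), to follow gene expression from normal skin to carcinoma under ultraviolet radiation. All tissues came from female hairless SKH-1 mice, 4 without irradiation and 4 irradiated. The study's methods give 7 months as their age when the groups were formed. Tissues were taken after the weeks of irradiation, and so at a later age. Irradiation was daily according to the labels and less frequent according to the study's methods. Each unirradiated mouse gave 1 NS, and each irradiated mouse gave 1 NS, 2 AK and 1 cSCC. The 8 AK therefore came from 4 mice, and the labels do not say which mouse, which AK grade or which irradiation a tissue had, so p-values below measured the spread between tissues and not between mice.

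NRF2, encoded by Nfe2l2, is the transcription factor that switches on enzymes against oxidants and electrophiles. KEAP1 binds NRF2 in the cytoplasm and delivers it to a CUL3 ubiquitin ligase for degradation, and oxidants or electrophiles modify KEAP1 cysteines so that NRF2 accumulates, enters the nucleus and binds antioxidant response elements (AREs) together with small MAF proteins. The pathway is regulated largely at the level of NRF2 protein, which RNA-seq does not measure, and in skin it protects keratinocytes against ultraviolet radiation and can also favour the survival of tumour cells.

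The ARE core was searched in RefSeq promoters (GRCm38.p6, 250 bases before to 50 bases after a start site) as TGACNNNGC or TGAGNNNGC on either strand. It was present in 5 of 10 promoters found for 8 of the 10 genes, against 9128 of 32851 promoters (27.8%) in the whole table, and a match is a stretch of letters and not a shown binding site. No match was found in the promoters of Nqo1, Keap1 or Gpx2. The windows below are printed to show where the ARE core, where found, lay before a start site. Each holds up to 20 bases on both sides of the match, is written 5′ to 3′ on the strand of its gene, and has the match in capitals.
Nfe2l2 (chr2:75704875-75704913, minus strand): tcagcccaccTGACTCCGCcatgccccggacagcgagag
Gclm (chr3:122245403-122245451, plus strand): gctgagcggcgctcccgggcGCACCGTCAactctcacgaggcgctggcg
Srxn1 (chr2:152105459-152105507, plus strand): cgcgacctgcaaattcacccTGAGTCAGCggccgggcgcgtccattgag
Srxn1 (chr2:152105346-152105394, plus strand): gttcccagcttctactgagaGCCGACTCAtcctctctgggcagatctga
Txnrd1 (chr10:82859094-82859142, plus strand): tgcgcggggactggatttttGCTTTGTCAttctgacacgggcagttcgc
Slc7a11 (chr3:50443682-50443730, minus strand): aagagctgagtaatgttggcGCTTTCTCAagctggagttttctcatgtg
The Srxn1 match that began 45 bases before the start overlapped TGACTCA on the opposite strand, the AP-1 motif, which 5.2% of all promoters held. The match of Gclm began 134 bases before its start and that of Nfe2l2 240 bases before. The Txnrd1 window belonged to a start site inside the gene body (chr10:82833951-82897712).

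Library totals ran from 1624325 to 6295575 counts in NS, 867219 to 14055206 in AK and 775750 to 7095102 in cSCC, and levels are given as CPM, each gene's count relative to its library's total after TMM scaling. The 7 keratinocyte markers examined were detected in every group, with summed levels of 6866 to 19108 CPM in NS and 9734 to 17218 CPM in AK. In cSCC these sums were 18380 CPM in cSCC 18, 17204 CPM in cSCC 19, 5261 CPM in cSCC 20 and 3813 CPM in cSCC 21. Within this list, the basal keratin Krt14 had a median of 5982 CPM in NS and 8815 CPM in cSCC. The keratins of differentiating cells, Krt1 and Krt10, had medians of 2659 and 1685 CPM in NS and 80.4 and 28.0 CPM in cSCC. Neither overlapped between NS and cSCC, a trait of 8.43% of all genes tested. Krt15 and Trp63 also had lower medians in cSCC (72.5 and 256 CPM) than in NS (352 and 353 CPM). Krt5 was 1387 CPM in NS and 1445 CPM in cSCC, and Dsg3 was 35.4 and 61.1 CPM. Of the cSCC libraries, cSCC 20 carried 35805 CPM of lung epithelium markers against 3.95 to 8.34 CPM in the other 3, and cSCC 21 carried 57328 CPM of heart muscle markers against 78.5 to 157 CPM. Globin genes and Alas2 held 46.9% of all counts in cSCC 18. Summed endothelial markers were 88.9 to 501 CPM in cSCC against 23.1 to 88.5 CPM in NS and 28.9 to 79.1 CPM in AK. Summed neutrophil markers had a median of 3283 CPM in cSCC, 561 CPM in NS and 1347 CPM in AK. The largest members in cSCC were S100a8 and S100a9, with medians of 1141 and 2026 CPM. The paper measured the latter in carcinoma and keratinocyte cell lines too, so the sum need not follow neutrophils alone. Against AK, the medians of Csf3r and Cxcr2 were also higher in cSCC. Ly6g was 11.5 CPM in AK and 12.1 CPM in cSCC, and Mpo, at 0.17 CPM in cSCC, was not higher. Sebocyte markers had medians of 176, 838 and 851 CPM in cSCC, NS and AK. These lists move with the cSCC comparisons, and their part in any cSCC difference below was not tested. NS and AK also differed, with overlapping ranges. Summed skeletal muscle markers had medians of 2941 CPM in NS and 984 CPM in AK, and globin genes with Alas2 7531 and 19850 CPM. Keratinocyte sums had medians of 13475 and 14008 CPM, although Krt10 was 1685 and 705 CPM. The part of tissue composition in any AK difference was not tested either. Values without cSCC 20 and 21 are given where they change a call or differ clearly, and for the members not called in cSCC at the end of their account. In bulk tissue, fewer cells of a type and less RNA per cell cannot be told apart.

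**Figure D1:**
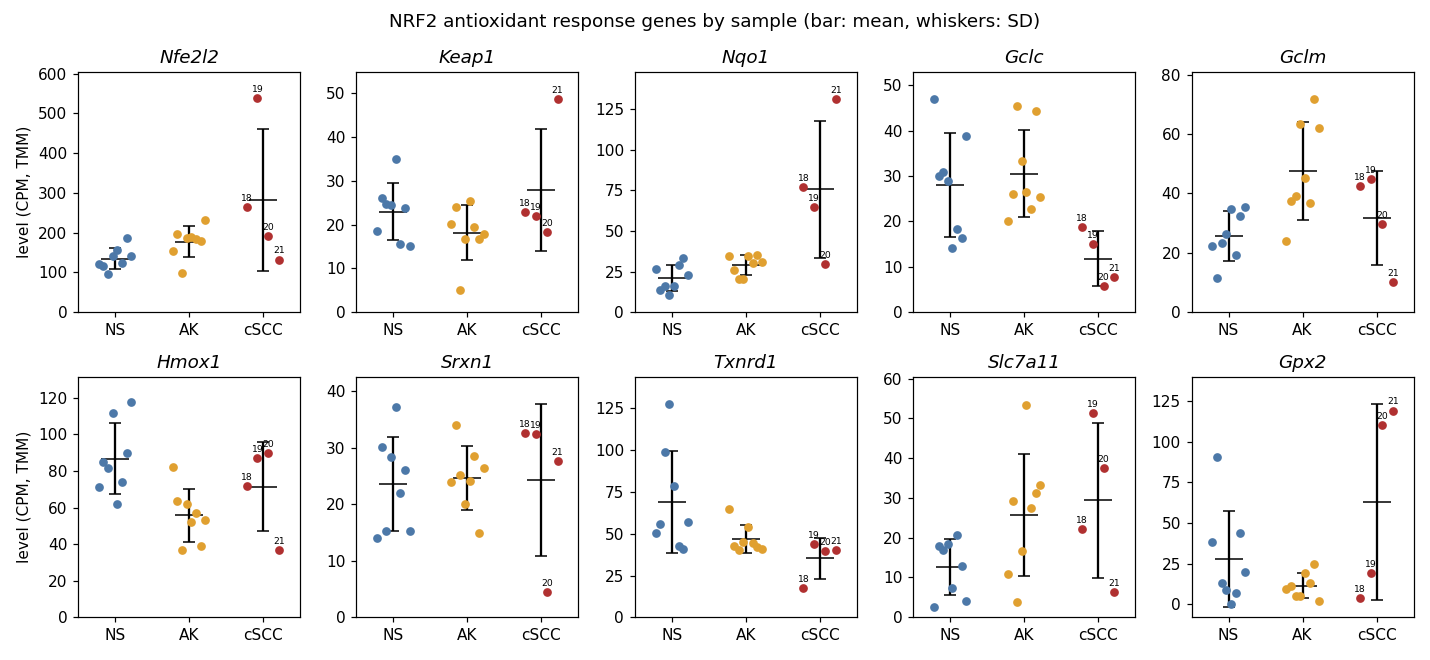
Levels of the 10 genes (CPM, TMM-scaled, vertical axis) in each NS, AK and cSCC library, with the group mean as a bar, the SD as whiskers and cSCC libraries numbered. Nqo1 was above every NS and AK level in cSCC 18, 19 and 21, and Gclc was below every AK level in all 4 cSCC.

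Within normal skin, levels per kilobase of exon put Hmox1 first (49.4 ± 11.04 CPM per kb, SD, n = 8), followed by Nfe2l2 (35.5 ± 7.20 CPM per kb), whose SD ranges overlapped. Nqo1 (13.6 CPM per kb), Txnrd1 (9.73), Gpx2 (8.64), Srxn1 (8.36), Gclc (7.46), Keap1 (4.88) and Gclm (4.08) formed a run in which each gene lay within the SD of its neighbour, well below Nfe2l2. Slc7a11 had the lowest level per length (0.903 ± 0.507 CPM per kb). In cSCC, the means per kilobase were led by Nfe2l2 (74.2 CPM per kb) and Nqo1 (48.7 CPM per kb), then Hmox1 (40.7 CPM per kb), and their SDs overlapped. Exon lengths were the union of all isoforms, so a gene with long alternative exons such as Slc7a11 is set low.

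For AK against NS, 2 of the 10 genes were differentially expressed (DEGs), Gclm upward and Hmox1 downward, where 4.64% of all 11677 genes tested were called, 2.26% upward and 2.38% downward. For cSCC against NS, 2 of 10 were called, Nfe2l2 and Nqo1, both upward, where the background was 19.3% of 12097 genes (11.7% upward, 7.65% downward). For cSCC against AK, 3 of 10 were called, Nqo1 and Gpx2 upward and Gclc downward, where the background was 24.4% of 12032 genes (16% upward, 8.34% downward). The shares of members called in both cSCC comparisons were thus close to those of all genes. The median log2 fold change of the 10 genes was 0.07, 0.36 and 0.36 in these comparisons, against -0.04, 0.14 and 0.17 over all genes tested. All 10 passed the filter on low counts in each comparison. No member had AK or cSCC levels that were fully apart from NS, as 0.522% of all genes tested had for AK and 8.43% for cSCC, and 1 member, Gclc, was fully apart between cSCC and AK. The comparisons share groups and are not independent of one another.

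**Figure D2:**
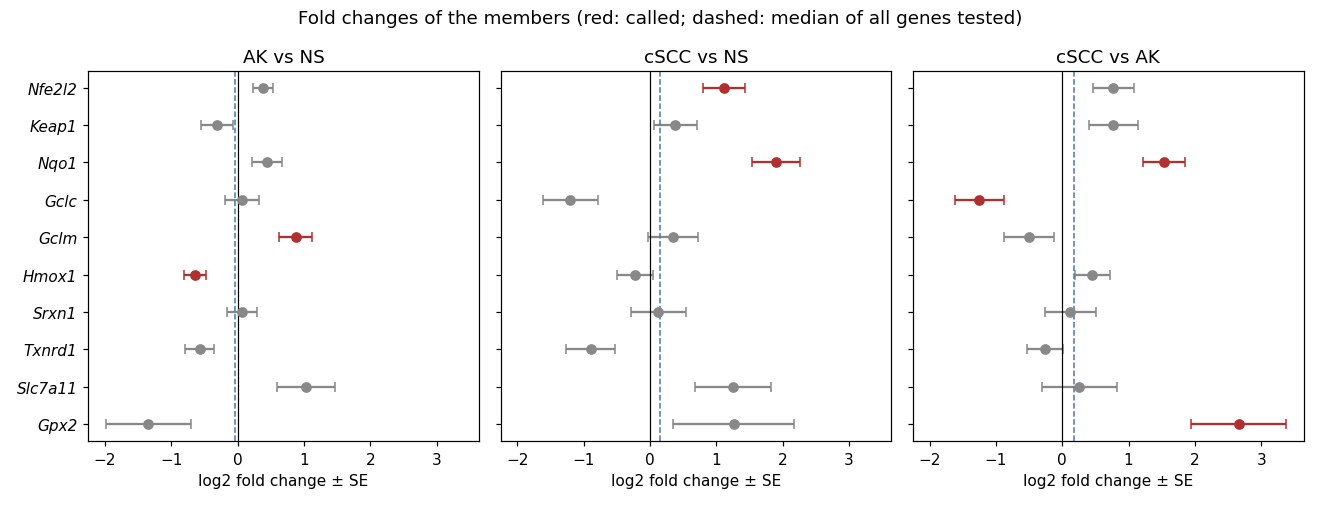
Log2 fold change (horizontal axis) ± SE of each gene in the 3 comparisons, with DEGs in red and the median of all genes tested as a dashed line. Members lay on both sides of the dashed line in every comparison, from -1.34 (Gpx2) to 1.03 (Slc7a11) in AK against NS.

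Among the regulators, Nfe2l2 was between 95.3 and 185 CPM in NS (median 132 CPM) and between 98.4 and 231 CPM in AK (median 185 CPM). The cSCC levels were 265 CPM in cSCC 18, 537 CPM in cSCC 19, 192 CPM in cSCC 20 and 132 CPM in cSCC 21. The first 3 of these exceeded every NS, whereas cSCC 21 lay at the NS median. Nfe2l2 rose in cSCC against NS (log2 fold change 1.11, SE 0.31, adjusted p = 0.0241 by edgeR). The call rested on cSCC 19, without which the log2 fold change was 0.59 (adjusted p = 0.145), and scaling by library size alone also ended it (0.91, adjusted p = 0.110). Without cSCC 20 and 21 the log2 fold change was 1.61 (adjusted p = 0.00504). Against AK it was 0.77 (SE 0.31, adjusted p = 0.0846), which did not pass, and 0.25 (adjusted p = 0.539) without cSCC 19. It passed without cSCC 21 (0.91, adjusted p = 0.0402) and without both cSCC 20 and 21 (1.25, adjusted p = 0.0130). In AK against NS, 7 of 8 AK were above the NS median, with a log2 fold change of 0.38 (SE 0.16, adjusted p = 0.141).

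Keap1, the repressor of NRF2, did not pass in any comparison. Its level was 15.1 to 34.9 CPM in NS (median 24.1 CPM) and 5.05 to 25.3 CPM in AK (median 18.7 CPM), the lowest AK value resting on 4 counts in AK 12. For cSCC 18, 19, 20 and 21, in this order, the levels were 22.9, 21.97, 18.2 and 48.6 CPM, so that cSCC 21 alone exceeded every NS and AK library. The log2 fold change was -0.31 (SE 0.24, adjusted p = 0.440) in AK against NS, 0.38 (SE 0.32, adjusted p = 0.439) in cSCC against NS and 0.77 (SE 0.37, adjusted p = 0.141) in cSCC against AK. Exons of Keap1 (chr9:21229730-21239361, GRCm38) overlap those of an antisense gene, Gm16754, and because the strand used in counting is not stated, reads of both cannot be told apart.

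The ratio of Nfe2l2 to Keap1 within a library sets activator against repressor and does not depend on library scaling apart from the pseudocount. The log2 ratio was 2.53 ± 0.45 (SD, n = 8) in NS, 3.29 ± 0.41 (n = 8) in AK and 3.20 ± 1.30 (n = 4) in cSCC. It was higher in AK than in NS by 0.76 (two-sided exact permutation test, p = 0.00357, adjusted p = 0.0214 over 6 ratio tests), and this passed in 16 of 16 runs that left out 1 library. The ranges still overlapped, from 2.85 to 4.04 in AK and from 1.90 to 3.14 in NS. In cSCC the difference from NS was 0.67 (exact permutation p = 0.214, adjusted p = 0.257), and without cSCC 21, the library with the highest Keap1 and heart muscle markers, it was 1.26 (exact permutation test, adjusted p = 0.0182). That was the only 1 of 12 runs with 1 library left out that passed. Without cSCC 19 the difference was 0.21 (exact permutation test, adjusted p = 0.655). Without cSCC 20 and 21 it was 1.48 (exact permutation test, adjusted p = 0.0667). Every cSCC ratio then left exceeded every NS ratio, so the unadjusted p-value was already the smallest that the few splits allow. The missed threshold in that run therefore decides nothing. The difference of cSCC from AK was -0.09 (exact permutation p = 0.848), and it turned to 0.50 without cSCC 21, to 0.73 without cSCC 20 and 21 and to 0.017 without AK 12, none of which passed. The run without cSCC 20 and 21 had as few splits here, so its missed threshold says little.

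**Figure D3:**
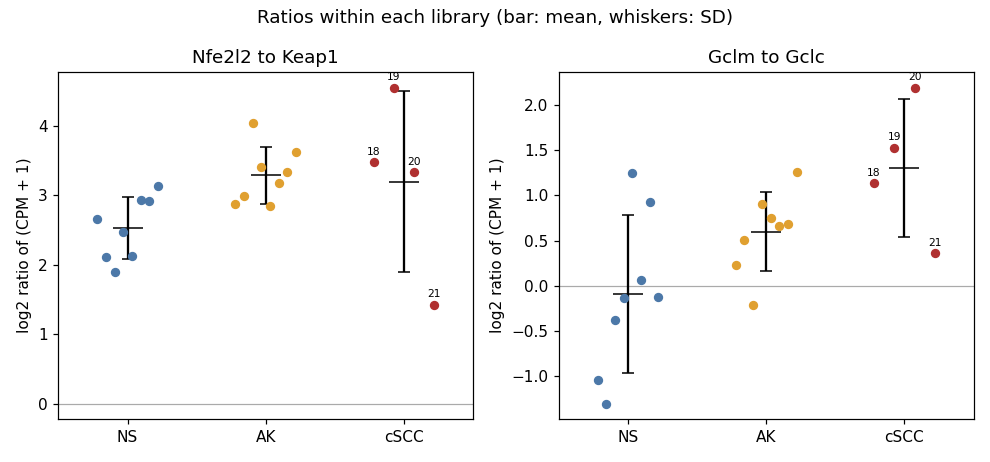
Log2 ratio of (CPM + 1) within each library (vertical axis) for Nfe2l2 to Keap1 and Gclm to Gclc in NS, AK and cSCC, with group mean (bar), SD (whiskers) and cSCC libraries numbered. The Nfe2l2 to Keap1 mean is 2.53 in NS and 3.29 in AK, and cSCC 21 has the lowest value of all libraries, 1.43.

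Nqo1, the quinone reductase that is widely used as a readout of NRF2 activity, was the member with the most stable difference in cSCC. It lay between 10.8 and 33.2 CPM in NS (median 19.7 CPM) and between 20.2 and 35.4 CPM in AK (median 30.6 CPM). The same 4 carcinomas held 77.1, 64.6, 29.6 and 131 CPM. The first 2 and the last exceeded every NS and AK, and cSCC 20, the shallowest library, lay within both ranges. Nqo1 rose in cSCC against NS by a log2 fold change of 1.90 (SE 0.36, adjusted p = 0.00443) and against AK by 1.53 (SE 0.32, adjusted p = 0.00524). It was called in all 22 alternatives of each comparison, including the removal of cSCC 20 and 21 together (1.76 against NS, adjusted p = 0.0102, and 1.34 against AK, adjusted p = 0.00556). Among these, no fold limit and an unadjusted p-value only relaxed the call rule of the same fit, so no call could be lost there. The smallest log2 fold change of Nqo1 against AK was 0.99 (adjusted p = 0.0249), without cSCC 21. In AK against NS, all 8 AK were above the NS median, but the log2 fold change of 0.44 (SE 0.22, adjusted p = 0.229) did not pass.

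Glutathione synthesis is limited by glutamate-cysteine ligase, whose catalytic subunit is encoded by Gclc and whose modifier subunit by Gclm. Gclc ranged from 14.1 to 47.0 CPM in NS (median 29.6 CPM) and from 20.2 to 45.4 CPM in AK (median 26.3 CPM). In cSCC 18, 19, 20 and 21 it was 18.8, 14.9, 5.69 and 7.77 CPM, all below every AK library. The cSCC 20 value rested on 5 counts, where 3 counts would be 3.41 CPM. Groups that did not overlap were found for 10.2% of all genes tested in this comparison. Gclc fell in cSCC against AK by 1.25 on the log2 scale (SE 0.37, adjusted p = 0.0241). The 2 lowest levels were in cSCC 20 and 21, which also had the lowest keratinocyte marker sums of the cSCC libraries. The part of this in the result was not tested. The log2 fold change missed the threshold without cSCC 20 (-1.06, adjusted p = 0.0517), without cSCC 21 (-1.15, adjusted p = 0.0554), without both (-0.77, adjusted p = 0.195) and with limma voom (-1.12, adjusted p = 0.207). Against NS it was -1.20 (SE 0.41, adjusted p = 0.0548), which just missed the threshold, and it was called without NS 6 (-1.30, adjusted p = 0.0466), without NS 8 (-1.32, adjusted p = 0.0422) and without cSCC 18 (-1.51, adjusted p = 0.0294). It was -1.02 (adjusted p = 0.114) without cSCC 20, -1.03 (adjusted p = 0.133) without cSCC 21 and -0.72 (adjusted p = 0.315) without both. Of the 10 alternatives other than leaving out 1 library, 4 called Gclc lower against NS, among them the unadjusted p-value.

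Gclm was 11.6 to 35.5 CPM in NS (median 24.9 CPM) and 23.9 to 71.9 CPM in AK (median 42.2 CPM), and 7 of 8 AK exceeded every NS. It rose in AK by a log2 fold change of 0.88 (SE 0.25, adjusted p = 0.0435). This was close to the threshold. In the 16 runs that left out 1 library the log2 fold change stayed between 0.77 and 0.99 with adjusted p-values between 0.0187 and 0.0928, and Gclm was called in 5 of them, those without NS 6, NS 8, NS 9, AK 10 or AK 11. The call was also lost with library size alone (adjusted p = 0.0622), upper quartile factors (0.0505), no filter on low counts (0.0555) and all 20 samples in 1 fit (0.167), with log2 fold changes of 0.79 to 0.89. The cSCC libraries, in the order 18, 19, 20 and 21, held 42.4, 44.8, 29.6 and 10.3 CPM of Gclm, spanning from below every NS to above every NS, with a log2 fold change of 0.35 (SE 0.38, adjusted p = 0.551) against NS and -0.50 (SE 0.38, adjusted p = 0.352) against AK. Gclm (chr3:122245557-122270732) shares exon sequence positions with Gm17494 on the opposite strand and Gm6061 on the same strand, so its counts may hold reads of either.

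The log2 ratio of Gclm to Gclc was -0.09 ± 0.87 (SD, n = 8) in NS, 0.60 ± 0.44 (n = 8) in AK and 1.30 ± 0.77 (n = 4) in cSCC. None of its differences passed after adjustment by the exact permutation test: 0.69 for AK against NS (adjusted p = 0.106), 1.40 for cSCC against NS (adjusted p = 0.0788) and 0.70 for cSCC against AK (adjusted p = 0.106). Passing runs were 1 of 16, 2 of 12 and 1 of 12 in these comparisons with 1 library left out. Without NS 6 the first was 0.89 and the second 1.59 (exact permutation test, adjusted p = 0.0280 and 0.0205). Without cSCC 21 the second was 1.71 and the third 1.02 (exact permutation test, adjusted p = 0.0273 and 0.0242). Without cSCC 20 the third fell to 0.41 (exact permutation test, adjusted p = 0.364).

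Slc7a11, the cystine importer that supplies cysteine for glutathione, was 2.46 to 20.6 CPM in NS (median 14.9 CPM) and 3.78 to 53.4 CPM in AK (median 28.4 CPM), where 5 of 8 AK exceeded every NS. The levels in cSCC 18, 19, 20 and 21 were 22.2, 51.4, 37.5 and 6.29 CPM. The first 3 exceeded every NS and cSCC 21 lay in the lower part of the NS range. The log2 fold change was 1.03 (SE 0.44, adjusted p = 0.153) in AK against NS, 1.26 (SE 0.57, adjusted p = 0.137) in cSCC against NS and 0.26 (SE 0.56, adjusted p = 0.770) in cSCC against AK, and none passed. The lowest AK value rested on 3 counts in AK 12.

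Gpx2, a selenium-dependent glutathione peroxidase of epithelia, varied most within groups. It was 0 to 91.0 CPM in NS (median 16.6 CPM), with no count in NS 6, where 3 counts would be 1.69 CPM, and 1.83 to 24.6 CPM in AK (median 10.2 CPM). In cSCC 18, 19, 20 and 21 it was 3.47, 18.9, 110 and 119 CPM. The 2 high libraries were those with lung or heart muscle markers, and the other 2 lay inside the AK range. Gpx2 rose in cSCC against AK (log2 fold change 2.66, SE 0.71, adjusted p = 0.0163). The call was lost without cSCC 21 (1.99, adjusted p = 0.0797) and under limma voom (1.75, adjusted p = 0.185), and without cSCC 20 and 21 the log2 fold change was 0.12 (adjusted p = 0.936). Against NS it was 1.26 (SE 0.91, adjusted p = 0.354), and -1.23 (adjusted p = 0.535) without those libraries. In AK against NS it was -1.34 (SE 0.64, adjusted p = 0.200).

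**Figure D4:**
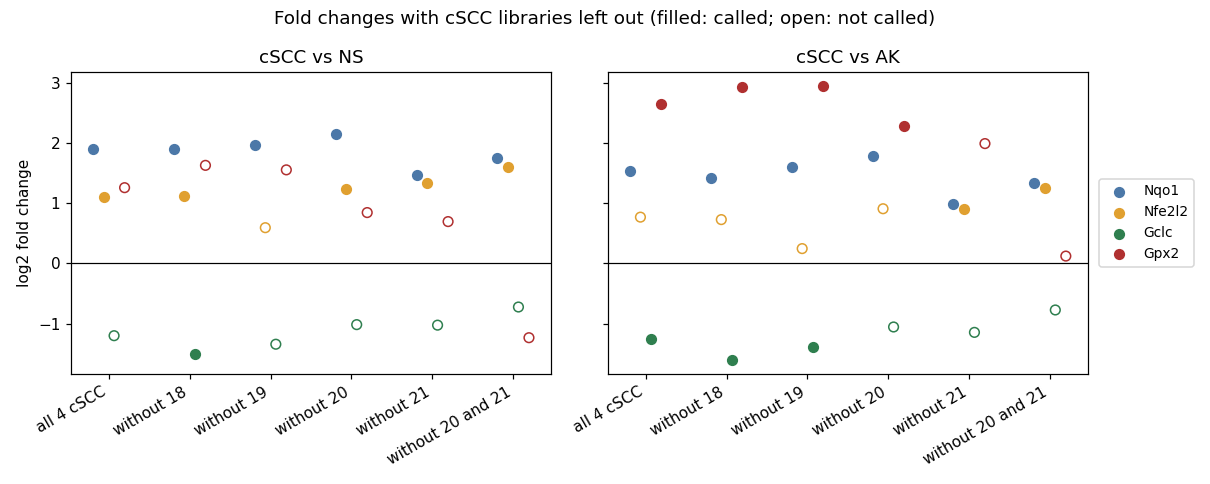
Log2 fold change (vertical axis) of Nqo1, Nfe2l2, Gclc and Gpx2 in cSCC against NS and against AK with all 4 cSCC and with cSCC libraries left out (horizontal axis), filled where called. Nqo1 was called in every setting, whereas Gpx2 against AK went from 2.66 to 0.12 without cSCC 20 and 21.

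Hmox1, the inducible heme oxygenase that degrades heme to biliverdin, iron and carbon monoxide, was 62.0 to 117 CPM in NS (median 83.2 CPM) and 36.6 to 82.0 CPM in AK (median 55.2 CPM). All 8 AK were below the NS median and 6 were below every NS. Hmox1 fell in AK by 0.64 on the log2 scale (SE 0.17, adjusted p = 0.0341). Without 1 library at a time, the log2 fold change stayed between -0.74 and -0.57 and the adjusted p-value between 0.0143 and 0.0660. It was called in 6 of these 16 runs, those without NS 1, NS 6, NS 7, NS 8, AK 10 or AK 11. The call was also lost without a filter on low counts (adjusted p = 0.0522), with all 20 samples in 1 fit (adjusted p = 0.160) and with limma voom, where the log2 fold change of -0.57 (adjusted p = 0.0224) missed the fold limit. Among the carcinomas 18, 19, 20 and 21, Hmox1 was 71.5, 87.0, 89.9 and 36.9 CPM. The first 3 lay within the NS range and cSCC 21 below it, with a log2 fold change of -0.23 (SE 0.27, adjusted p = 0.592) against NS and 0.45 (SE 0.26, adjusted p = 0.218) against AK. Macrophages also use Hmox1, and the summed level of 7 macrophage markers was 172 to 766 CPM in NS, 240 to 863 CPM in AK and 231 to 1062 CPM in cSCC. This list was split between AK and NS. Medians were higher in AK for Cd68 (225 against 110 CPM), Mrc1 (199 against 128 CPM) and Cd163. They were lower in AK for Csf1r (21.8 against 30.1 CPM), C1qa (17.1 against 24.1 CPM), C1qb and Marco. The part of macrophages in the Hmox1 result was not tested.

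Srxn1 and Txnrd1 keep peroxiredoxins and thioredoxin in their reduced forms. Srxn1, or sulfiredoxin, was 14.1 to 37.2 CPM in NS (median 24.1 CPM) and 14.98 to 34.0 CPM in AK (median 24.7 CPM). In cSCC 18, 19, 20 and 21 it was 32.6, 32.5, 4.55 and 27.6 CPM, with 3 of 4 inside the NS range and cSCC 20, on 4 counts, below every NS. Its log2 fold change was 0.07 (SE 0.22, adjusted p = 0.883), 0.13 (SE 0.42, adjusted p = 0.867) and 0.12 (SE 0.38, adjusted p = 0.843) in the 3 comparisons, each below its SE and of changing sign under scaling by library size alone. Txnrd1, the cytosolic thioredoxin reductase, was 41.1 to 128 CPM in NS (median 56.4 CPM) and 40.4 to 64.9 CPM in AK (median 43.7 CPM). Levels of 17.4, 43.9, 39.8 and 40.4 CPM were found in cSCC 18, 19, 20 and 21, all below the NS median. Its log2 fold change was -0.57 (SE 0.22, adjusted p = 0.115) in AK against NS, -0.89 (SE 0.37, adjusted p = 0.101) in cSCC against NS and -0.26 (SE 0.27, adjusted p = 0.497) in cSCC against AK, and none passed. In cSCC against NS, 2 of the 10 alternatives other than leaving out 1 library called Txnrd1 lower, among them the unadjusted p-value. Thus, in cSCC against NS with the main settings, Nqo1 and Nfe2l2 were called higher. Srxn1 and Txnrd1, which are also regarded as NRF2 targets, were not called. Without cSCC 20 and 21, none of the members that had not been called in cSCC was called, apart from Nfe2l2 against AK. The log2 fold changes against NS and AK were then 0.0073 and 0.34 for Keap1, 0.79 and -0.054 for Gclm, 1.58 and 0.58 for Slc7a11, -0.098 and 0.57 for Hmox1, 0.50 and 0.46 for Srxn1, and -1.12 and -0.51 for Txnrd1.

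The members did not keep one order among the cSCC libraries. cSCC 21 held the highest level of all 20 libraries for 3 of the 10 genes, Keap1, Nqo1 and Gpx2, and the lowest for Gclm. cSCC 20 held the lowest level for Gclc and Srxn1, on 5 and 4 counts, cSCC 18 the lowest for Txnrd1, and cSCC 19 the highest for Nfe2l2.

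A further 78 genes around the pathway were grouped by role, of which 74 were tested. In AK against NS, 1 was called higher and 3 lower, where 2.26% and 2.38% of all genes were. In cSCC against NS, 18 were called higher and 4 lower, where 11.7% and 7.65% of all genes were, and without cSCC 20 and 21 these counts were 11 and 5, where 5.74% of all genes were called higher and 6.46% lower. In cSCC against AK, 24 were called higher and 4 lower, where 16% and 8.34% of all genes were, and 14 and 6 without cSCC 20 and 21, where 6.71% of all genes were called higher and 5.90% lower. Without cSCC 21 alone, 13 were higher and 3 lower against NS (all genes 6.97% and 7.24%), and 14 and 4 against AK (all genes 6.90% and 7.83%). With library size alone as the scaling, the counts were 9 higher and 6 lower against NS (all genes 5.17% and 11.01%) and 13 higher and 5 lower against AK (all genes 8.49% and 11.3%), where this scaling lowered the median log2 fold change of all genes from 0.14 to -0.17 and from 0.17 to -0.09. The median log2 fold change of the 74 genes was -0.08 in AK against NS, 0.36 in cSCC against NS and 0.64 in cSCC against AK.

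Of 10 regulators and partners tested, Bach1, the heme-sensing repressor that competes with NRF2 for AREs, rose in AK. It was 44.6 ± 10.5 CPM in NS (SD, n = 8), 81.3 ± 14.7 CPM in AK (n = 8) and 23.4 ± 11.2 CPM in cSCC (n = 4), with a log2 fold change of 0.85 (SE 0.16, adjusted p = 0.0151) in AK against NS and -1.71 (SE 0.29, adjusted p = 0.00248) in cSCC against AK. The AK and cSCC levels did not overlap, as was found for 10.2% of all genes tested, and the second call held in 5 of 5 runs with cSCC libraries left out. Cul3, the scaffold of the ligase that degrades NRF2, fell in cSCC against NS by 1.15 on the log2 scale (SE 0.29, adjusted p = 0.0143), from 191 to 328 CPM in NS to 73.3 to 160 CPM in cSCC. Its call against AK (-1.01, adjusted p = 0.0211) was lost without cSCC 19. Sqstm1, the autophagy receptor p62 that sequesters KEAP1, rose against NS (1.45, SE 0.39, adjusted p = 0.0202) and against AK (1.70, SE 0.41, adjusted p = 0.0102), and both calls were lost without cSCC 21, which held 964 CPM against at most 205 CPM in NS.

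Of 24 genes for glutathione use and transport, 7 were called higher and 1 lower in cSCC against NS, where 11.7% and 7.65% of all genes were, and 10 higher and 1 lower in cSCC against AK, where 16% and 8.34% were. Without cSCC 20 and 21 these counts were 5 and 2 against NS (all genes 5.74% and 6.46%) and 6 and 3 against AK (all genes 6.71% and 5.90%). With library size alone they were 4 and 1 against NS (all genes 5.17% and 11.01%) and 6 and 1 against AK (all genes 8.49% and 11.3%). Gsta4, a glutathione S-transferase for lipid aldehydes, had the largest log2 fold change against NS of all 74 genes, 3.88 (SE 0.53, adjusted p = 0.00106), with 4.27 to 46.6 CPM in NS, 9.58 to 104 CPM in AK and 147 to 345 CPM in cSCC. Gsta1 rose by 2.37 (SE 0.34, adjusted p = 0.00138), from 6.22 to 14.2 CPM in NS to 22.8 to 74.7 CPM in cSCC, although reads of Gsta1 and its near-identical copy Gsta2 may be split uncertainly. Both were called in all 5 runs with cSCC libraries left out and under library size alone, in each cSCC comparison. Gpx3, the secreted peroxidase, rose against NS (2.02, SE 0.55, adjusted p = 0.0203, lost without cSCC 21) and against AK (3.10, SE 0.55, adjusted p = 0.00274), and Gpx4, the peroxidase of membrane lipids, rose against AK (2.45, SE 0.37, adjusted p = 0.00194). Both had their highest levels in cSCC 21, 879 and 542 CPM, and without cSCC 20 and 21 their log2 fold changes against AK were 1.65 and 1.26, still called. Gss and Slc3a2, chosen after their values were seen because they act next to Gclc and Slc7a11, were called higher against NS in 5 of 5 runs with cSCC libraries left out. Against AK, Gss was called in 5 of 5, and Slc3a2 (1.05, adjusted p = 0.0202) in 3 of 5, lost without cSCC 21, without cSCC 20 and 21, and also with library size alone (0.82, adjusted p = 0.112). In AK against NS, Gstm5 fell by 1.09 (SE 0.27, adjusted p = 0.0283) and Abcc1, a transporter of glutathione conjugates, by 0.80 (SE 0.20, adjusted p = 0.0297), both on the log2 scale. Gstm5 was 202 and 222 CPM in NS 1 and NS 2, against 46.8 to 133 CPM in the other NS.

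Of 11 thioredoxin and peroxiredoxin genes, 4 were called higher in cSCC against NS, where 11.7% of all genes were, and 5 against AK, where 16% were. Without cSCC 21, 2 were called higher in each comparison, where 6.97% and 6.90% of all genes were. With all 4 cSCC, the leading ones were mitochondrial: Txnrd2 (log2 fold change 2.43 against NS and 2.98 against AK), Prdx3 (1.66 and 1.505) and Txn2 (1.34 and 1.45). All 6 calls were lost without cSCC 21, the library with heart muscle markers, in which Txnrd2 was 71.9 CPM and Prdx3 693 CPM. Without both cSCC 20 and 21, however, Txn2 was called higher in both comparisons, whereas Txnrd2 and Prdx3 were not. Txn2 was 201, 245, 104 and 620 CPM in cSCC 18, 19, 20 and 21, against at most 174 CPM in NS and 147 CPM in AK. Prdx6, named after its values were seen, rose against NS (1.33, SE 0.26, adjusted p = 0.00443) and AK (1.38, SE 0.24, adjusted p = 0.00265), overlapped with neither group, and held in 5 of 5 runs with cSCC libraries left out and with library size alone. Among 7 genes that supply NADPH, Taldo1, the transaldolase of the pentose phosphate pathway, rose in cSCC (1.09, SE 0.21, adjusted p = 0.00443 against NS, and 1.28, SE 0.24, adjusted p = 0.00312 against AK). Me1, the cytosolic malic enzyme, fell by 1.67 against NS (SE 0.29, adjusted p = 0.00283) and by 1.48 against AK (SE 0.28, adjusted p = 0.00361) on the log2 scale, from 137 to 244 CPM in NS and 105 to 220 CPM in AK to 27.2 to 70.5 CPM in cSCC. Taldo1 and Me1 did not overlap between cSCC and either group and held in 5 of 5 runs with cSCC libraries left out, while Taldo1 against NS was not called under library size alone (0.79, adjusted p = 0.0559). The lack of overlap of Prdx6, Taldo1 and Me1 was shared by 8.43% of all genes tested against NS and 10.2% against AK.

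Of 7 heme and iron genes, Fech, the ferrochelatase, rose in cSCC against NS (3.39, SE 0.60, adjusted p = 0.00295), with its highest level, 2293 CPM, in cSCC 18, where globin genes and Alas2 held 46.9% of counts. This call held in 5 of 5 runs with cSCC libraries left out, with log2 fold changes of at least 2.48. It also held with library size alone (2.71, adjusted p = 0.00265). Within AK and NS too, Fech was highest where globin genes and Alas2 held the largest share of counts. These were AK 14 (1156 CPM, 14.4% of counts) and NS 9 (286 CPM, 5.46%). The part of blood in the Fech result was not tested. The ferritin heavy chain Fth1 rose against NS (1.52, SE 0.47, adjusted p = 0.0360) and AK (1.45, SE 0.41, adjusted p = 0.0216), and both calls were lost without cSCC 20. Blvrb, a biliverdin reductase, rose against AK (0.96, SE 0.32, adjusted p = 0.0421), and this was lost without cSCC 18, 19 or 20. Of 11 genes for drug and carbonyl metabolism, Akr1b3, an aldose reductase, rose against NS (1.505, SE 0.29, adjusted p = 0.00453) and AK (1.22, SE 0.31, adjusted p = 0.0126, lost without cSCC 21), both lost without cSCC 20 and 21 together (0.88 and 0.56), and the aldehyde dehydrogenase Aldh3a1 fell by 2.92 against NS on the log2 scale (SE 0.85, adjusted p = 0.0275, lost without cSCC 19 or 21). All 4 enzymes against superoxide and peroxide were called higher in cSCC against AK, where 16% of all genes were: Sod3 (3.37), Cat (1.57), Sod1 (1.56) and, named after its values were seen, Sod2 (1.40). Cat and Sod2 lost their calls without cSCC 21, leaving 2 (all genes 6.90%), as many as with library size alone (all genes 8.49%). Without cSCC 20 and 21, Sod1 was 0.97 and still called. In cSCC against NS, Sod3 (2.42, adjusted p = 0.0163) and Sod2 (1.42, adjusted p = 0.0267) were called, both lost without cSCC 21. Sod1 fell in AK against NS by 0.83 on the log2 scale (SE 0.24, adjusted p = 0.0494). It was 223 and 318 CPM in NS 1 and NS 2, against 95.0 to 124 CPM in the other NS and 68.3 to 105 CPM in AK. No runs with 1 library left out are given here for the AK against NS calls of these other lists.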

How the data were processed

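RNA-seq of 20 skin tissues from SKH-1 mice (8 NS, 8 AK and 4 cSCC) was examined, and groups were taken from the sample labels. The authors deposited raw counts per gene symbol, not normalized. The submitters' processing notes name Trimmomatic 0.36, HISAT2 2.0.5 and featureCounts 1.5.2 with the builds mm9 and hg19, whereas the paper's methods name GRCm38 and StringTie, so the counter, the build and the strand setting of the deposited counts could not be settled. Totals were 775750 to 14055206 counts per sample, and 3 counts corresponded to 0.225 to 3.78 CPM.

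CPM, the share of a library's scaled total, used TMM factors across the 20 samples (edgeR 4.0.16, R 4.3.3). Pairs of groups were compared with the quasi-likelihood test of edgeR on just those 2 groups, after filterByExpr. Genes were called DEGs when the p-value, adjusted by Benjamini-Hochberg over all genes tested, was under 0.05 and the fold exceeded 1.5 or was less than 0.67. Standard errors (SE) of log2 fold changes were derived from F. Ratios within a library were taken as log2(CPM + 1) differences and compared by two-sided exact permutation tests, adjusted over 6 tests (Python 3.11.15, scipy 1.17.1). Alternatives were DESeq2 1.42.0, limma 3.58.1 voom with sample quality weights, other scalings, filters and call rules, all 20 samples in 1 fit, and leaving out libraries. The fit was tested on simulated data. The counts of the other pathway lists with cSCC libraries left out or with library size alone were added after the data were seen.

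The 10 genes, the other pathway lists and the marker lists were chosen with earlier results of these data known. All 10 genes are given in every comparison. Of each other list, up to 3 DEGs with the largest absolute log2 fold change were named per comparison, and genes named beyond that rule are marked as chosen after their values were seen. Gene positions and exon lengths are from GENCODE M21 on GRCm38, matched by symbol, and promoter sequences are from RefSeq on GRCm38.p6, which held promoters for 8 of the 10 genes. No promoter of Hmox1 or Gclc was analysed here.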

Additional observations from a re-analysis of the deposited data

Results flagged for a closer look

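In 3 of 30 groups of values (10 genes in 3 tissues), 1 library stood apart from the rest of its group by Dixon's test, which chance does in about 1 in 20 groups. Keap1 was 5.05 CPM in AK 12, where the next lowest AK was 16.6 CPM, and rested on 4 counts in a library of 867219 counts. Keap1 was 48.6 CPM in cSCC 21, the library with heart muscle markers, where the next highest cSCC was 22.9 CPM. Txnrd1 was 17.4 CPM in cSCC 18, the library rich in globin counts, where the next lowest cSCC was 39.8 CPM.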

How the results depend on the processing

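Nqo1 kept its call in both cSCC comparisons in 22 of 22 alternatives. In those with no fold limit or an unadjusted p-value, a call could not be lost. In AK against NS, the number of the 10 genes called was 1 with limma voom, library size alone or upper quartile factors, 0 without a filter or with all 20 samples in 1 fit, 4 at an unadjusted p-value under 0.05, and 0 to 2 with 1 library left out. In cSCC against NS it was 4 with all 20 samples in 1 fit, 5 unadjusted and 1 to 3 with 1 library left out. In cSCC against AK it was 1 with limma voom and 2 to 3 with 1 library left out. Leaving out 1 library moved the Nfe2l2 to Keap1 ratio difference between 0.21 and 1.26 in cSCC against NS and between -0.54 and 0.50 in cSCC against AK (0.73 without cSCC 20 and 21). It moved the Gclm to Gclc difference between 0.52 and 0.89 in AK against NS, 1.10 and 1.71 in cSCC against NS and 0.41 and 1.02 in cSCC against AK.

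Changes of sign occurred for log2 fold changes that had not passed. For AK against NS these were Gclc (-0.034 with voom, -0.055 with library size alone, -0.033 to 0.22 with 1 library left out) and Srxn1 (-0.020 with library size alone, -0.017 to 0.18 with 1 left out). For cSCC against NS they were Srxn1 (-0.051 with voom, -0.25 with library size alone, -0.039 to 0.43 with 1 left out), Keap1 (-0.061 to 0.51 with 1 left out) and Gpx2 (-1.23 without cSCC 20 and 21). For cSCC against AK they were Srxn1 (-0.26 with voom, -0.22 with library size alone, -0.080 without a filter, -0.00032 with at least 10 counts in at least 4 samples, -0.020 with all 20 samples in 1 fit, -0.11 to 0.44 with 1 left out) and Slc7a11 (-0.20 to 0.53 with 1 left out). The cause was not tested.

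Library size alone turned the split of all calls from 264 higher and 278 lower to 176 and 481 in AK against NS, from 1414 and 926 to 625 and 1332 in cSCC against NS, and from 1931 and 1004 to 1021 and 1356 in cSCC against AK. Upper quartile factors gave 190 and 391 in AK against NS. Without cSCC 20 and 21, 733 and 825 were called against NS and 843 and 741 against AK. No paired analysis was possible because the groups share no replicate number and the labels name no mouse. With 4 cSCC, and totals down to 775750 counts, 3 counts, taken as the limit of detection, were up to 3.78 CPM.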
